A study of Rattus norvegicus with 4 samples.

Results

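The genes described here are 8 transcriptional regulators of mitochondrial and oxidative genes: the coactivators Ppargc1a and Ppargc1b, the nuclear receptors Esrra, Esrrg, Ppara and Ppard, the transcription factor Nrf1 and the mitochondrial DNA-binding factor Tfam. They were taken by name, through the transcript accession that the array files give for each probe, and all 8 were found among 26633 genes and transcripts on the array, of which 15637 carry a symbol. They were chosen by name with the processed signals of these 4 arrays, and so their differences between groups, already known, and their values are a description. RNA came from the soleus of male rats, a calf muscle built mainly of slow fibres, and 1 one-colour Agilent array was hybridised for each of 4 groups with RNA mixed from 6 muscles. Normal muscle and regenerated muscle, the second taken 8 weeks after an injection that the labels call CTX, came from rats aged 16 weeks, and overloaded (hypertrophied) muscle and regenerated muscle after overloading came from rats aged 18 weeks. The labels do not expand CTX or say how the load was raised. Titles of the groups without injury close with the letter R and those of the regenerated groups with L, and no label says what these letters mean or whether groups share rats. Every group is a single pooled sample (n = 1), so no difference has a replicate check and no test between groups was made. Age and the row of the slide also changed with overload and cannot be told apart from it.

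PGC-1alpha, the protein of Ppargc1a, does not bind DNA itself. It docks onto transcription factors, among them the estrogen-related receptors (Esrra, Esrrg), the PPAR receptors and nuclear respiratory factor 1, and raises transcription of nuclear genes for the respiratory chain, fatty acid oxidation and, through Tfam, the copying and reading of mitochondrial DNA. In muscle it is induced by contraction through calcium and AMPK signalling and is known for its part in the oxidative character of slow fibres. Each level below is the processed signal of a probe as a percentage of the 75th percentile of its own array. A level of one gene is not set against that of another, since probes differ in brightness. Differences are on the log2 scale, with a technical standard error (SE) from repeated spots on the array.

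Of the 8 genes, 7 matched an entry in the RefSeq promoter table (assembly GRCr8), and Ppard did not. The 250 bases before the annotated start of Ppargc1a (chr14:63634058-63634307, plus strand) are shown because it had the largest differences of the set. They hold the palindrome TGACGTCA, the cyclic AMP response element, in capitals, 181 to 174 bases before the start. The stretches of Esrra (chr1:213543376-213543465, minus strand), Ppara (chr7:118712462-118712551, plus strand) and Tfam (chr20:17355273-17355362, plus strand) (90 bases each) are shown because each holds letters of a motif bound by a regulator named here or by its partner. Capitals mark the NRF1 palindrome in Ppara (10 letters, in which CATGCGC lies on both strands), CATGCGC in Esrra, and CCGGAAG, the core bound by ETS factors such as GABPA, in Tfam.
Ppargc1a: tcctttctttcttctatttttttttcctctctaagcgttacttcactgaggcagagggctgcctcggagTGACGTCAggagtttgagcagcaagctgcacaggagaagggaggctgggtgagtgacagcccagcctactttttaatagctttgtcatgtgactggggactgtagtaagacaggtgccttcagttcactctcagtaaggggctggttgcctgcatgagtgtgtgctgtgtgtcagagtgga
Esrra: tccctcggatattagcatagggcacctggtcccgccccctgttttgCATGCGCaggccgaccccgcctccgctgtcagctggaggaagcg
Ppara: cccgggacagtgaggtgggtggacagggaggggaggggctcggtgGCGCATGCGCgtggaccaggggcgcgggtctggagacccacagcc
Tfam: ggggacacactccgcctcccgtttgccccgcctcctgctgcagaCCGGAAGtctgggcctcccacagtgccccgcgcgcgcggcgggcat
Both strands were searched in the 250 bases before all 33469 annotated starts. TGACGTCA occurred in 1.59% of them, the whole NRF1 palindrome in 0.762%, CATGCGC in 3.26% and CCGGAAG in 7.27%. The estrogen-related receptor motif TCAAGGTCA occurred in 0.388% and in none of the members' entries, and the GC box GGGCGG in 30.5% and in entries of 6 members. These matches describe the letters of the windows alone.

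Ppargc1a was the member with the widest range over the 4 arrays, 1.57 on the log2 scale (2.98-fold) between normal and regenerated overloaded muscle, against a median range of 0.35 over the 14417 genes above background on all 4. Its 2 spots read 15.2% and 18.2% on the normal array, 11.48% and 12.7% on the regenerated array, 6.42% and 7.28% on the overloaded array, and 4.92% and 6.31% on the regenerated overloaded array. Both spots of normal muscle lay above both of regenerated muscle, which lay above all 4 of the overloaded groups. The spots of the overloaded groups came next to each other without overlap, 6.42% against 6.31%. The steps from normal to regenerated (0.46, technical SE 0.14) and from regenerated to overloaded muscle (0.82, technical SE 0.22) were more than 2 technical SE, and the step to regenerated overloaded muscle (0.30, technical SE 0.29) was not.

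**Figure D1:**
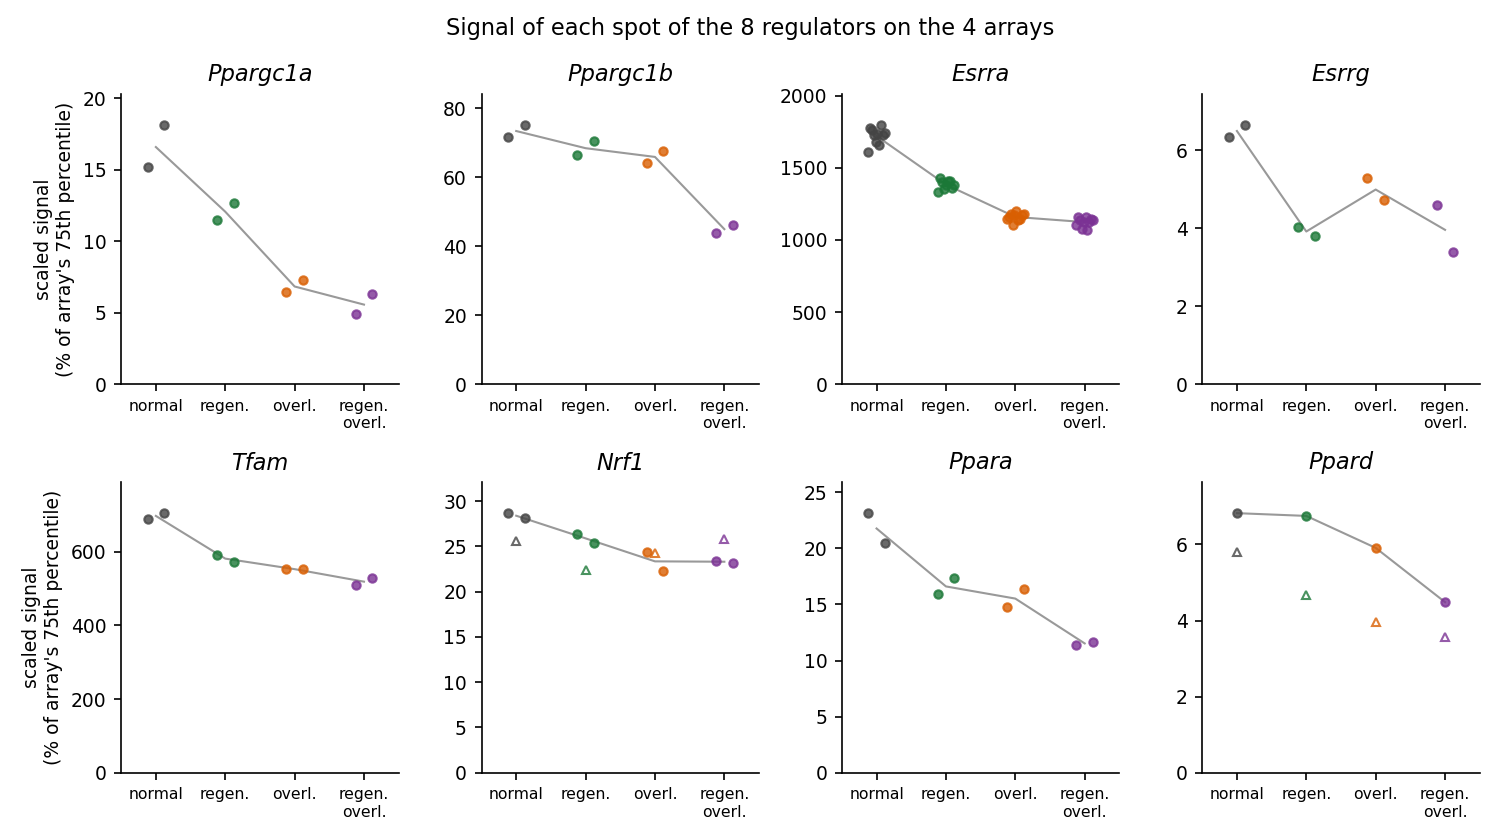
Scaled signal (percent of the array's 75th percentile, vertical axis from 0) of every spot of the 8 regulators on the normal, regenerated, overloaded and regenerated overloaded array. Filled points are spots of the brightest probe, joined at their mean, and open triangles a gene's other probe; Ppargc1a runs from 16.6% on the normal to 5.57% on the regenerated overloaded array.

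Overload was accompanied by a lower Ppargc1a signal in muscle without and with earlier injury. The signal fell 2.43-fold in overloaded against normal muscle (log2 difference -1.28, technical SE 0.23) and 2.17-fold in regenerated overloaded against regenerated muscle (-1.12, technical SE 0.22). These comparisons share no array, and the second minus the first was 0.16 (technical SE 0.32), less than its technical error. In all, 32 of 14458 genes above background on both arrays lay at or below Ppargc1a in the first comparison, and 31 of 16195 in the second. After the normexp correction of background the differences were -0.93 and -0.61, both under 2-fold. Muscle fibre markers were lower too, with medians of -0.33 and -0.19 over 8 genes, and relative to these medians Ppargc1a stood at -0.95 and -0.92, also under 2-fold. Values relative to these markers, here and below, use the 75th percentile scaling and depend on it. With quantile normalization the marker medians were -0.042 and -0.081, and Ppargc1a stood at -1.41 and -1.17. The 8 measured fast fibre markers had a median of -1.24 in overloaded against normal muscle. There 4 were 2-fold or more lower (0.74% of all genes) and 1, Myh4 (1.39), that much higher (2.42%). Their median was -0.12 after overload of regenerated muscle. In regenerated overloaded against overloaded muscle it was 0.63, while Ppargc1a stood at -0.30. There 3 markers were 2-fold or more higher (1.01% of genes) and 1 lower (0.68%). The summed signal of the fast fibre markers was 34803% of the 75th percentile on the normal array. It was 22650%, 19233% and 18838% on the regenerated, overloaded and regenerated overloaded array. Ppargc1a and the summed muscle fibre, slow fibre and fast fibre markers all had the same order of arrays, as did 21.6% of the 14417 genes above background on all. The part of the fast fibre markers in the Ppargc1a difference was not tested.

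Regenerated muscle without overload had a smaller difference of Ppargc1a from normal muscle, -0.46 (technical SE 0.14, 1.37-fold), or -0.23 relative to the muscle fibre markers. Between the overloaded groups, regenerated against not injured, it was -0.30 (technical SE 0.29). Neither reached 2-fold.

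Ppargc1b, whose protein PGC-1beta is the closest relative of PGC-1alpha and shares many of its partners, had another pattern. Its 2 spots read 71.6% and 75.2% on the normal, 66.5% and 70.4% on the regenerated, 64.2% and 67.6% on the overloaded, and 43.7% and 46.2% on the regenerated overloaded array. The regenerated and overloaded arrays overlapped and the normal array lay just above them, with steps of 0.10 and 0.054 that were within 2 technical SE, and the regenerated overloaded array stood apart by 0.55 (technical SE 0.073). The overload difference was -0.16 (technical SE 0.077) without earlier injury and -0.61 (technical SE 0.072, 1.52-fold) after it. The second minus the first was -0.45 (technical SE 0.10), beyond 2 technical SE, and it ran from -0.58 to -0.34 over the scalings and background corrections. Its median over all genes was 0.074, and 5.80% of genes lay at or below Ppargc1b. In regenerated overloaded against overloaded muscle Ppargc1b stood at -0.55 (technical SE 0.073, 1.47-fold), where 1.59% of genes lay at or below it.

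**Figure D2:**
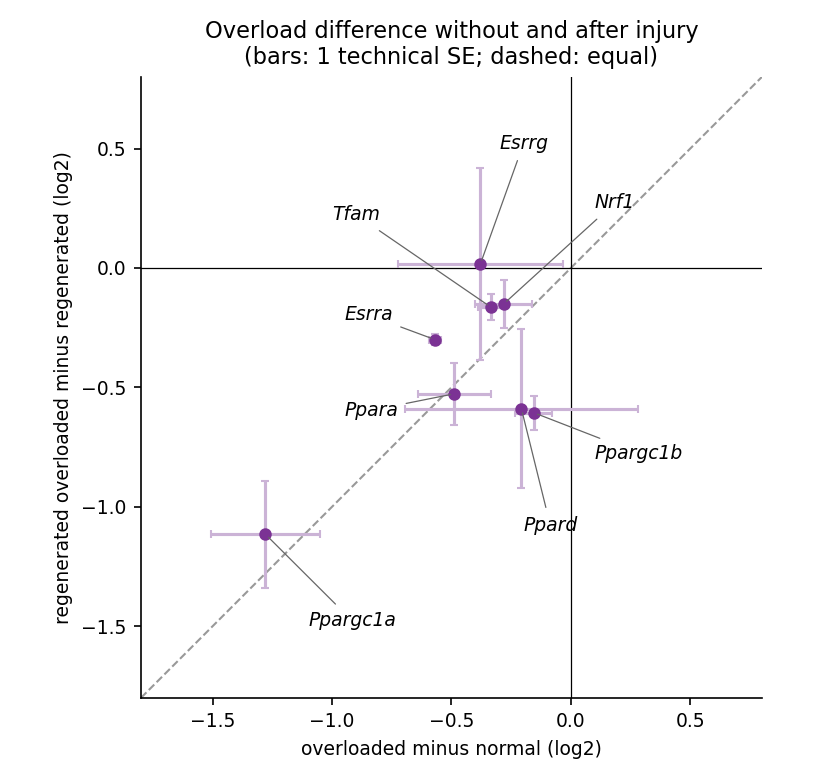
Log2 difference of overloaded minus normal muscle (horizontal) against that of regenerated overloaded minus regenerated muscle (vertical) for the 8 regulators, with bars of 1 technical SE and a dashed line where both are equal. Ppargc1a lies on the line within its error at -1.28 and -1.12, Ppargc1b below it at -0.16 and -0.61, and Esrra above it at -0.57 and -0.30.

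Esrra encodes estrogen-related receptor alpha, the orphan receptor through which PGC-1alpha acts on many respiratory chain genes, and its probe, printed 10 times, was the most precisely measured. Its spots lay between 1610.0% and 1798% on the normal array, 1329% and 1429.8% on the regenerated array (9 spots, since 1 was flagged as an outlier), 1106% and 1202% on the overloaded array, and 1072% and 1156% on the regenerated overloaded array. The spots of normal muscle did not overlap those of any other array, nor did those of regenerated muscle, and the overloaded arrays overlapped each other. Esrra stood at -0.57 (technical SE 0.024, 1.48-fold) in overloaded against normal muscle, at -0.31 (technical SE 0.025) in regenerated against normal muscle and at -0.30 (technical SE 0.024) in regenerated overloaded against regenerated muscle. It stayed under 2-fold in each. The small technical SE does not cover the scaling: with quantile normalization the difference was -0.35 in overloaded and -0.15 in regenerated against normal muscle. Relative to the muscle fibre markers it was -0.24 and -0.082 there and -0.11 in regenerated overloaded against regenerated muscle. Its overload difference was smaller in size after injury by 0.27 (technical SE 0.034), a value that lay between 0.12 and 0.32 over the scalings. The median of this value over all genes was 0.074, and 85.6% of genes lay at or below Esrra.

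Esrrg, estrogen-related receptor gamma, is known for its high expression in oxidative muscle, but its probe was dim here. Its spots read 6.34% and 6.66% on the normal, 4.03% and 3.81% on the regenerated, 5.29% and 4.72% on the overloaded, and 4.61% and 3.41% on the regenerated overloaded array. Normal muscle was the highest and the overloaded array came next without overlap, while the spots of regenerated muscle fell within the span of regenerated overloaded muscle. The largest difference was -0.73 (technical SE 0.36, 1.66-fold) in regenerated against normal muscle, which was -0.38 with normexp and -0.50 relative to the fibre markers, both under 1.5-fold, and the neighbouring levels did not differ by more than 2 technical SE.

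The PPAR receptors bind fatty acids and switch on genes of fatty acid use. Ppara read 23.1% and 20.5% on the normal, 15.9% and 17.3% on the regenerated, 14.7% and 16.3% on the overloaded, and 11.4% and 11.6% on the array of regenerated overloaded muscle. Normal muscle was highest and regenerated overloaded muscle lowest, each without overlap, and the other two overlapped. Its differences were -0.39 (technical SE 0.13) in regenerated and -0.49 (technical SE 0.15) in overloaded against normal muscle. They were -0.53 (technical SE 0.13) in regenerated overloaded against regenerated and -0.43 (technical SE 0.16) against overloaded muscle. None of these reached 1.5-fold. Scaled to the array median in place of the 75th percentile, the overload differences without and after injury were -0.60 and -0.59, just past it.

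Ppard, the receptor linked to endurance capacity and a slow fibre programme, had 2 probes of 1 dim spot each. The brighter read 6.82%, 6.75%, 5.91% and 4.48% on the normal, regenerated, overloaded and regenerated overloaded array, and the other 5.81%, 4.67%, 3.95% and 3.57%. Both were lowest on the regenerated overloaded array. The brighter stood at -0.59 in regenerated overloaded against regenerated muscle (1.51-fold), with a technical SE of 0.33, and the other at -0.39 with one of 0.52.

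Nrf1 and Tfam carry the signal to the mitochondrial genome: nuclear respiratory factor 1 activates Tfam and many nuclear respiratory genes, and Tfam packages mitochondrial DNA and starts its transcription. Tfam read 689.6% and 704% on the normal, 591% and 572% on the regenerated, 553% and 552% on the overloaded, and 509% and 529% on the regenerated overloaded array. Normal muscle was highest without overlap, with differences of -0.26 (technical SE 0.056) in regenerated and -0.34 (technical SE 0.054) in overloaded muscle, and the muscle fibre markers had medians of -0.23 and -0.33 in the same comparisons. With quantile normalization these Tfam differences were -0.13 and -0.17, and the marker medians were -0.031 and -0.042. The brighter Nrf1 probe read 28.7% and 28.1% on the normal and 23.4% and 23.2% on the regenerated overloaded array, with no neighbouring pair of arrays apart by more than 2 technical SE. Its other probe, of 1 spot, differed in sign after overload of regenerated muscle (0.21, technical SE 0.13, against -0.15, technical SE 0.099), so that Nrf1 has no settled direction there.

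As a set, the 8 regulators sat on the low side of these comparisons, with 1 member past 2-fold at most. In overloaded against normal muscle all 8 were below 0 (7 with the authors' scaling, where Ppargc1b stood at 0.017), as were 64.8% of genes above background on both arrays, and all 8 were below the median of all genes, -0.12; 1 of 8 was 2-fold or more lower (0.74% of 17308 genes measured), and the same member was the only one 1.5-fold or more lower (3.09%). In regenerated overloaded against regenerated muscle 7 of 8 were below 0 (54.3% of genes) and 7 below the median of all genes, -0.023; 1 was 2-fold or more lower (0.442% of genes), and 3 were 1.5-fold or more lower (2.47%): Ppargc1a, Ppargc1b and Ppard. There Ppargc1b and Ppard fell short of 1.5-fold with normexp (-0.51 and -0.29), with the authors' scaling (-0.56 and -0.55) and relative to the fibre markers (-0.41 and -0.40). Ppara passed 1.5-fold there when scaled to the array median or with quantile normalization (both -0.59). Scaled to the array median, Esrra (-0.68) and Ppara (-0.60) also passed 1.5-fold in overloaded against normal muscle. In regenerated against normal muscle all 8 were below 0 (6 with the authors' scaling), as were 66.4% of genes, none reached 2-fold, where 0.662% of genes were that much lower, and Esrrg alone reached 1.5-fold (2.24%), a call lost with normexp and relative to the fibre markers. In regenerated overloaded against overloaded muscle all 8 were below 0 (52.4% of genes) and none was lower by 1.5-fold (2.33% of genes) or 2-fold (0.68%). Relative to the muscle fibre markers 5 of the 8 were below 0 in each of the 4 comparisons. This count depends on the scaling. With quantile normalization all 8 were below the marker medians in regenerated (-0.031) and overloaded (-0.042) against normal muscle. The highest there were Ppargc1b (-0.106) and Tfam (-0.166). After overload of regenerated muscle Esrrg alone (-0.0206) lay above the marker median (-0.081). Between both overloaded groups Esrra (-0.0305), Tfam (-0.083) and Nrf1 (-0.0031) lay above it (-0.111). Without quantile normalization the median of the 8 was -0.29 in regenerated against normal muscle, beside -0.11 over all genes. In overloaded against normal muscle it was -0.36 beside -0.12. After overload of regenerated muscle it was -0.41 beside -0.023, and between both overloaded groups -0.32 beside -0.011. No member was 1.5-fold or 2-fold higher in any comparison: in regenerated against normal muscle 5.77% and 1.25% of genes were, in overloaded against normal muscle 7.93% and 2.42%, after overload of regenerated muscle 4.62% and 1.55%, and between both overloaded groups 3.02% and 1.01%. The order normal, regenerated, overloaded, regenerated overloaded from high to low was found for 7 members, Esrrg being the exception. It was found for 21.6% of the 14417 genes above background on all arrays. Each of the 7 had steps within 2 technical SE, such as the last of Nrf1, 0.0025 (technical SE 0.11). The other Nrf1 probe broke the order, being highest on the regenerated overloaded array (25.9%).

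**Figure D3:**
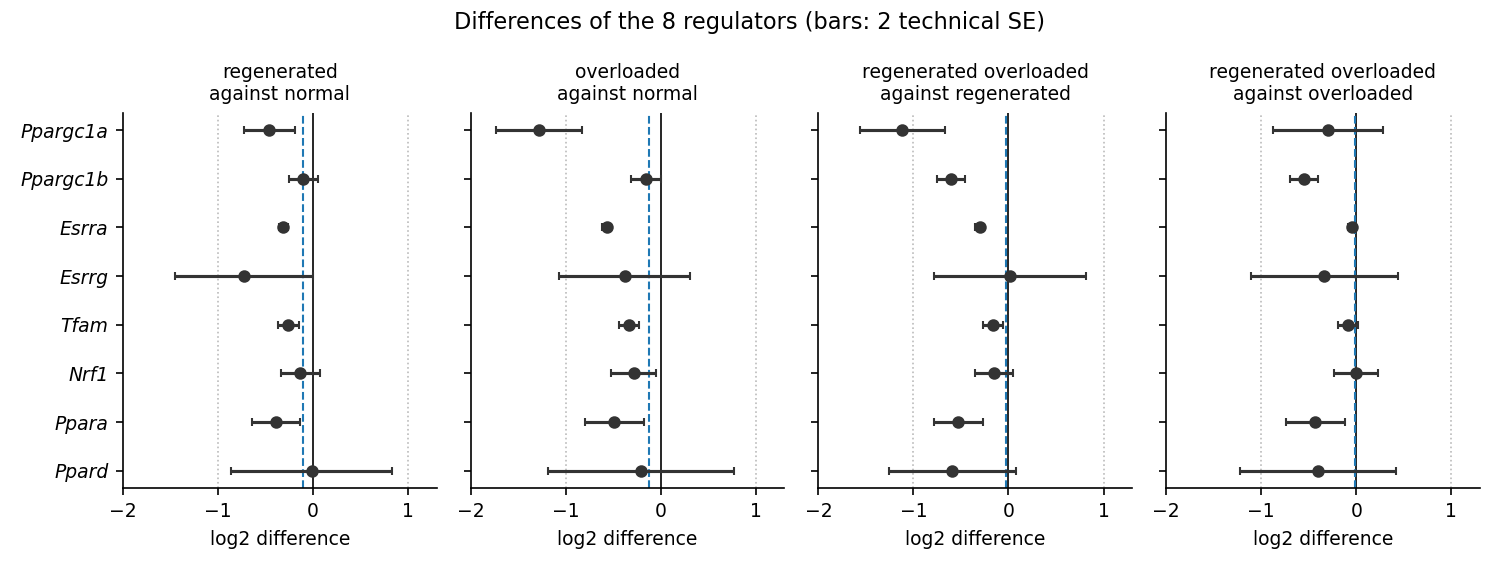
Log2 differences of the 8 regulators in the 4 comparisons, with bars of 2 technical SE, the median of all genes as a dashed line, 0 as a solid line and 2-fold as dotted lines. Ppargc1a passes the 2-fold line in both overload comparisons, at -1.28 and -1.12, and no other member passes it.

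The share of spots above background was 60.4% on the normal array and between 68.1% and 70.6% on the others. The normal array was the highest of the 4 for 54.8% of genes above background on all, and other scalings put the median of all genes between -0.20 and 0.022 in regenerated against normal and between -0.24 and 0.051 in overloaded against normal muscle. All 8 muscle fibre markers, among them Myh7 and Tnnt1 of slow fibres, were above background on every array, and their summed signal was highest on the normal array (238581% of the 75th percentile) and lowest on the regenerated overloaded array (179168%). The summed signal of 6 fibroblast markers (5 above background on the normal array, where Thy1 was not) ran the other way, from 5964% on the normal to 12140.5%, 16477% and 20775% on the regenerated, overloaded and regenerated overloaded array, and that of 8 macrophage markers from 3076% to 4817%, 5230.0% and 5681%. The part of these shifts in the regulators' differences was not tested, and in pooled muscle RNA fewer fibres and less RNA per fibre cannot be told apart.

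In both overload comparisons the other coactivators and corepressors of the pathway differed less than Ppargc1a. In regenerated against normal muscle Lpin1 (-0.80) and Perm1 (-0.52) differed more than Ppargc1a (-0.46). Of 18 listed genes of the PGC-1 family and its coregulators, 13 were on the array, and Ppargc1a was the only one past 2-fold in either overload comparison (13 and 12 measured). Perm1, a muscle protein induced by PGC-1alpha and the estrogen-related receptors, read 1095%, 763%, 574% and 465% on the normal, regenerated, overloaded and regenerated overloaded array on 1 spot. It stood at -0.93 (technical SE 0.076) in overloaded against normal and at -0.71 (technical SE 0.077) in regenerated overloaded against regenerated muscle. Lpin1, lipin 1, a phosphatidate phosphatase that also acts with PGC-1alpha, read 11.7% on the normal array and 6.76%, 6.07% and 6.32% on the others, so that regenerated (technical SE of the difference 0.20) and overloaded muscle (-0.95, technical SE 0.26) stood alike below normal. Nrip1, a corepressor of oxidative genes, was the highest of the list in regenerated against normal (0.35) and in regenerated overloaded against overloaded muscle (0.39).

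Among 15 measured nuclear receptor partners, Nr4a2, an orphan receptor induced rapidly by many stimuli, rose 3.59-fold in overloaded against normal muscle (1.84, technical SE 0.089) and 2.97-fold in regenerated overloaded against regenerated muscle (1.57, technical SE 0.088), on 1 spot, and was the only member of the list past 2-fold. It read 84.0% and 68.9% on the normal and regenerated array and 301% and 204% on the overloaded and regenerated overloaded array. Nr1d2 (-0.84, technical SE 0.15) and Nr1d1 (-0.69, technical SE 0.072), the REV-ERB receptors of the circadian clock, were the lowest of the list in overloaded against normal and in regenerated overloaded against regenerated muscle. Pparg, the PPAR of fat cells, stood at 0.79 in regenerated against normal muscle, where the median of 6 measured adipocyte markers was 1.05. Nr2f2 (COUP-TFII) was the highest of the list there, at 0.93.

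Upstream of Ppargc1a, no signalling gene reached 2-fold after overload, of 30 measured without and 28 after injury, and the list's medians, -0.13 and -0.087, stood beside -0.12 and -0.023 for all genes. The lowest was Rcan1, a calcineurin inhibitor whose transcription calcineurin itself drives: it read 5200.2% and 5768% on the normal and regenerated array and 2704% and 3132% on the overloaded and regenerated overloaded array, on 1 spot. Its differences were -0.94 (technical SE 0.075) in overloaded against normal and -0.88 (technical SE 0.073) in regenerated overloaded against regenerated muscle. Prkaa2, a catalytic AMPK subunit, read 211%, 161%, 145% and 119% over 10 spots. It stood at -0.54 (technical SE 0.026) and -0.43 (technical SE 0.028) after overload without and after injury. The other catalytic subunit, Prkaa1, did not share this, at -0.068 (technical SE 0.12) and 0.34 (technical SE 0.094). Prkag2, an AMPK subunit, was the highest of the list in overloaded against normal muscle, where its probe was not well above background on the normal array: it read at least 1.70-fold higher (8.93% against 5.25%). Camk2d, a calcium-dependent kinase, was the highest in regenerated overloaded against regenerated muscle (0.39, technical SE 0.14).

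Downstream, among the genes that the regulators are known to serve, those of the respiratory chain were lower by small and even amounts in both overload comparisons. Of 38 measured respiratory chain and ATP synthase genes none reached 1.5-fold in any comparison, where between 2.24% and 3.09% of genes were that much lower and between 3.02% and 7.93% higher. All 38 were below 0 in regenerated (66.4% of genes) and in overloaded against normal muscle (64.8%) and after overload of regenerated muscle (54.3%). Other scalings left at least 34, 33 and 36 of them below 0. Their median was -0.37 in overloaded against normal muscle, beside -0.33 for the muscle fibre markers and -0.12 for all genes, and it lay between -0.49 and -0.10 over the scalings. Its distance from the median of all genes ranged from -0.25 to -0.027 over them, and in regenerated against normal muscle from -0.14 to -0.0044. How far the list stood below other genes thus depends on the scaling in these comparisons with the normal array. In regenerated overloaded against regenerated muscle that distance ranged from -0.24 to -0.18. The lowest were Cycs, cytochrome c (-0.53), in overloaded against normal muscle and Ndufa10, a subunit of complex I (-0.50), in regenerated overloaded against regenerated muscle, where the list's median was -0.26. The 16 TCA cycle genes had medians of -0.41 and -0.34 in these overload comparisons, with Mdh2 (malate dehydrogenase, -0.56) and Ogdh (oxoglutarate dehydrogenase, -0.55) the lowest. Of 21 genes of mitochondrial DNA upkeep and transcription none reached 1.5-fold, and the medians were -0.23 and -0.080.

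**Figure D4:**
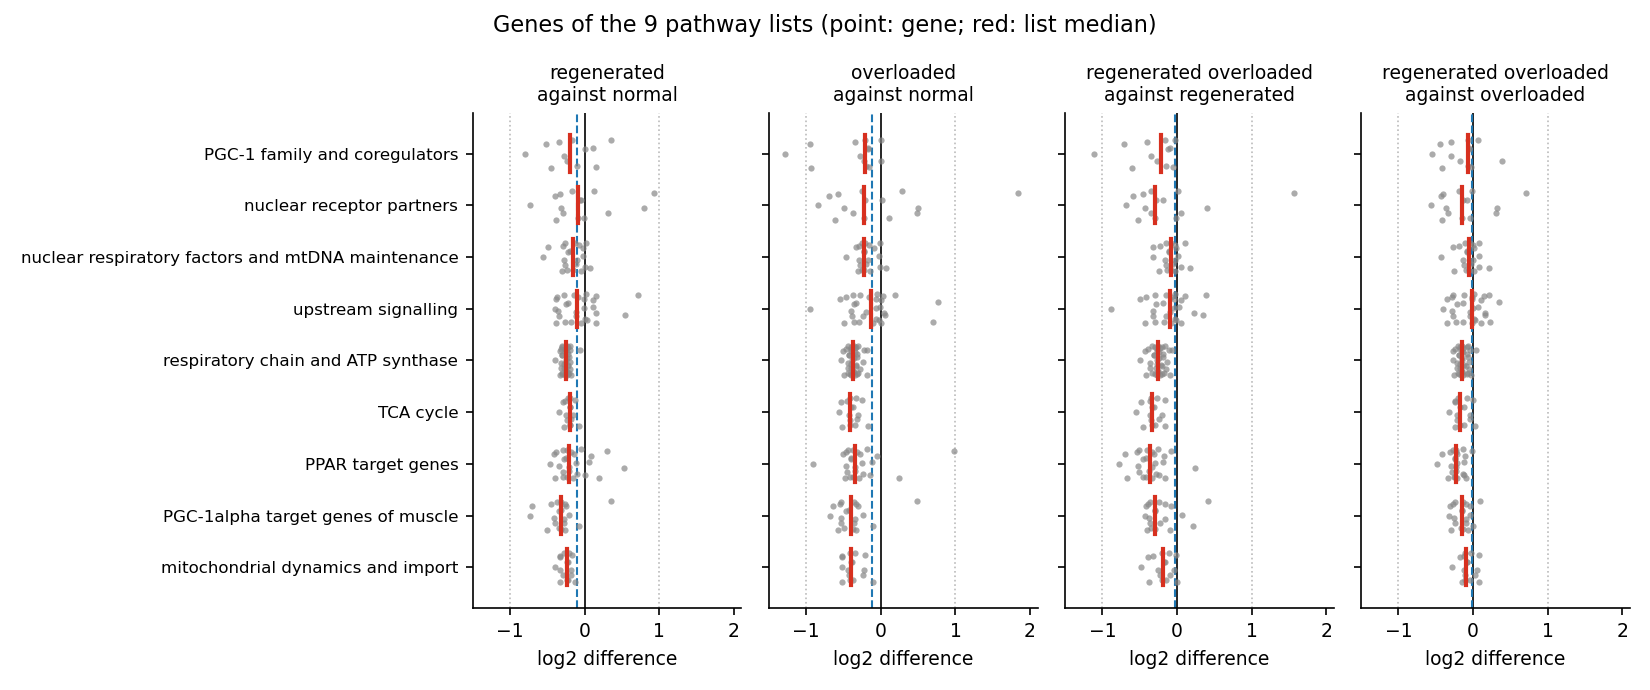
Log2 difference of each measured gene (points) and the median (red bar) of 9 pathway lists in the 4 comparisons, with the median of all genes dashed and 2-fold dotted. The 38 respiratory chain genes form a narrow cloud below 0 in overloaded against normal muscle with a median of -0.37, and Nr4a2 stands apart at 1.84.

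The 25 measured PPAR target genes had a median of -0.34 in overloaded against normal muscle, and 26 had one of -0.36 in regenerated overloaded against regenerated muscle, with none past 2-fold. Plin5, which coats lipid droplets at mitochondria, was the lowest in the first (-0.91, technical SE 0.20, 1 spot), and Angptl4, a secreted inhibitor of lipoprotein lipase and a standard PPAR target, in the second (-0.78, technical SE 0.056), where it read 236% against 406%. Ucp2, an uncoupling protein also found in macrophages, was the highest, at 0.98 (technical SE 0.082) in overloaded against normal muscle, where the macrophage markers had a median of 0.72. Among 20 genes known as PGC-1alpha targets in muscle, 19 were below 0 in overloaded against normal muscle, as were 64.8% of genes above background on both. This list includes the members Esrra and Tfam and shares genes with the fibre markers and the lists above, so its count is not separate from theirs. The list's median was -0.40, and between -0.51 and -0.22 over the scalings, with Fndc5, the precursor of irisin, the lowest (-0.68, technical SE 0.080, 1 spot) and Metrnl, meteorin-like, the highest (0.48, technical SE 0.063). In regenerated against normal muscle the lowest of that list were Kyat1, a kynurenine aminotransferase (-0.73), and Bdh1, an enzyme of ketone use (-0.71). Of 16 genes of mitochondrial dynamics and import, Mfn2, a fusion GTPase, was the lowest in overloaded against normal muscle (-0.53, technical SE 0.030).

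The genes whose 4 levels, each centred on the gene's mean, lay nearest to those of Ppargc1a were sought among 9128 other named genes above background on all arrays. The measure was the Euclidean distance in log2 units over the 4 arrays, with a median of 1.19. The nearest was Zbtb16, the zinc finger factor PLZF, at 0.10, with 17.1%, 13.2%, 6.81% and 6.00% on the normal, regenerated, overloaded and regenerated overloaded array. Ube2ql1 (0.21), Trim16 (0.25), Plekhf2 (0.25) and Fhl3 (0.27) followed. A second probe of Trim16 stood at -0.22 where the brighter read -1.17 in overloaded against normal muscle, and a second probe of Plekhf2 at 0.46 where the brighter read -1.44, so that the likeness of these 2 genes belongs to 1 of their probes. Among the members themselves Ppara was nearest to Ppargc1a (0.70, rank 197), then Esrra (0.79, rank 404) and Ppard (0.86, rank 734), while Ppargc1b ranked 800, Tfam 1584, Nrf1 2238 and Esrrg 2295.

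**Figure D5:**
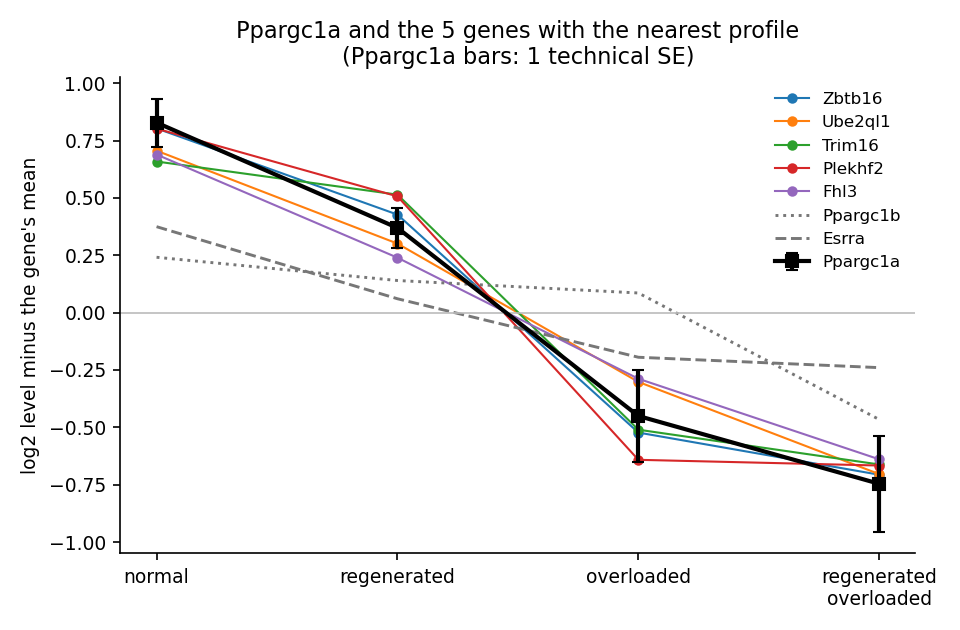
Log2 level minus the gene's own mean on the 4 arrays for Ppargc1a (black, bars of 1 technical SE), the 5 genes with the nearest profile (colours) and the members Ppargc1b and Esrra (grey). Zbtb16 runs within the error bars of Ppargc1a, while Ppargc1b stays level until the regenerated overloaded array.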

How the data were processed

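One-colour Agilent arrays, 1 per group, were read from the deposited scanner files. Per the file headers, Feature Extraction 11.5.1.1 with protocol GE1_1105_Oct12 made the processed signal, an intensity that is background-subtracted and detrended (10.10.1.1 per the submitters' processing notes). The authors' series table holds the same intensity times 1 constant per array, whose choice is not stated. Spots flagged as outliers were left out and none was saturated. Log2 intensities, less the array's own log2 75th percentile, were averaged over a probe's spots, and each gene is represented by its brightest probe. A probe counted as above background where more than 1 in 2 of its spots were. A comparison measured genes that were above background on either array, with the dim side raised to the array's lowest signal above background. Technical SE came from the SD between spots, pooled in 20 bins of signal. A call is 2-fold or more; 1.5-fold was an alternative. Members and lists were chosen with earlier results of these data known. Genes named from a list are those past 2-fold, or the highest and lowest, and the 5 nearest to Ppargc1a. Perm1, Prkaa1, Prkaa2 and Pparg were added after their values were seen. One gene of the list for mitochondrial dynamics and import is not reported here. The steps were tested on simulated data. The files hold no mean signal, so normexp (limma 3.58.1, offset 50) used the median signal. Python 3.11.15 with pandas 2.3.3 and numpy 2.4.6 was used.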

Additional observations from a re-analysis of the deposited data

How the results depend on the processing

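With 1 array per group, no alternative can replace a replicate, and dim probes (Ppargc1a, Esrrg, Ppard) limit precision most. No paired analysis was possible because each group has 1 array and no label says whether groups share rats. The Ppargc1a difference kept its sign under every setting run: it was -0.93 with normexp in overloaded against normal and -0.61 in regenerated overloaded against regenerated muscle. Relative to the muscle fibre markers, a setting chosen after seeing the data, it was -0.23 in regenerated against normal, -0.95 in overloaded against normal and -0.92 in regenerated overloaded against regenerated muscle. The count of members past 2-fold was 1 in each overload comparison and 0 with normexp or relative to the fibre markers; at 1.5-fold it was 1 in regenerated against normal and 3 in regenerated overloaded against regenerated muscle. The counts of all genes (324 for regeneration, 546 for overload, 342 for overload after injury and 295 between both overloaded groups) were, in that order, 96, 182, 101 and 69 with normexp, 2209, 5698, 1460.0 and 1438 without the filter on dim probes, and 1353, 1907, 1220.0 and 935 at 1.5-fold. With probes above background on both arrays they were 199 for regeneration, 227 for overload after injury and 144 between both overloaded groups. Under the planned settings Ppargc1b, Ppard, Esrrg and Nrf1 had differences that turned sign: Ppargc1b reached 0.030 in regenerated and 0.017 in overloaded against normal muscle, and Ppard 0.12 in regenerated against normal muscle, all with the authors' scaling. Relative to the fibre markers these were 0.13, 0.18 and 0.22, and Tfam (0.029 after overload of regenerated muscle, 0.037 between both overloaded groups) and Esrra (0.083 between both overloaded groups) turned sign too. So did Ppard in overloaded against normal muscle (0.13). Nrf1 turned sign in every comparison: 0.099 in regenerated and 0.051 in overloaded against normal muscle, 0.041 after overload of regenerated muscle and 0.13 between both overloaded groups. The cause of these shifts was not tested, and those relative to the fibre markers depend on the scaling.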
